A study of Mus musculus with 9 samples.

Results

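Class III receptor tyrosine kinases are growth factor receptors with immunoglobulin domains outside the cell and a split kinase domain inside it. The 9 genes described here are 5 of these receptors (Kit, Flt3, Csf1r, Pdgfra and Pdgfrb) and 4 of their ligands (Kitl, Flt3l, Csf1 and Pdgfb). They were picked by gene symbol, and each had 1 probe set among 20405 named genes. They were measured in 3 cell populations sorted from the aorta-gonad-mesonephros (AGM) region of E11.5 embryos (the embryonic day), from C57Bl6 mice, with 3 arrays each. The populations were cells with both CD144 (VE-cadherin, an endothelial adhesion protein) and CD45 (a phosphatase of blood cells), called HSPC, cells with CD45 alone, called HC, and cells with CD144 alone, called EC. The study had no treatment and no mutant allele. The embryos behind each sample are not described, so p-values cover the spread between these arrays alone, which may be technical.

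The AGM is where the first blood stem and progenitor cells leave the endothelium of the dorsal aorta. Kit and its ligand Kitl (stem cell factor) sustain blood progenitors, mast cells and germ cells. Flt3 and Flt3l act on early myeloid and lymphoid progenitors, Csf1r and Csf1 on macrophages, and the receptors for platelet-derived growth factor (PDGF) on mesenchymal and mural cells, to which endothelial Pdgfb is a recruiting signal.

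Values are log2 expression, so a difference of 1 is 2-fold. A level of one gene cannot be set against that of another, since each probe set binds differently. The values carry no detection calls, and 4.64, the level that 95% of 1286 odorant and pheromone receptor genes did not exceed, served as a yardstick of background. Kitl in HC was the only member mean at or under it. The sort was visible in the genes of both sorting proteins. Cdh5, which encodes CD144, averaged 10.47 ± 0.68 in HSPC, 5.79 ± 0.65 in HC and 11.70 ± 0.14 in EC, and Ptprc, which encodes CD45, 8.90 ± 0.26 in HSPC, 9.95 ± 0.10 in HC and 4.42 ± 0.07 in EC (SD, n = 3 each). The HSPC arrays stood apart from each other: in all 10 endothelial markers listed replicate 1 was highest, then 3, then 2, and in all 11 macrophage markers the order was the opposite. Among the 3024 genes higher in HC than in EC, 42.2% had that second order, against 20.3% of all genes. In sorted bulk samples a smaller share of a cell type and less RNA per cell cannot be told apart.

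**Figure D1:**
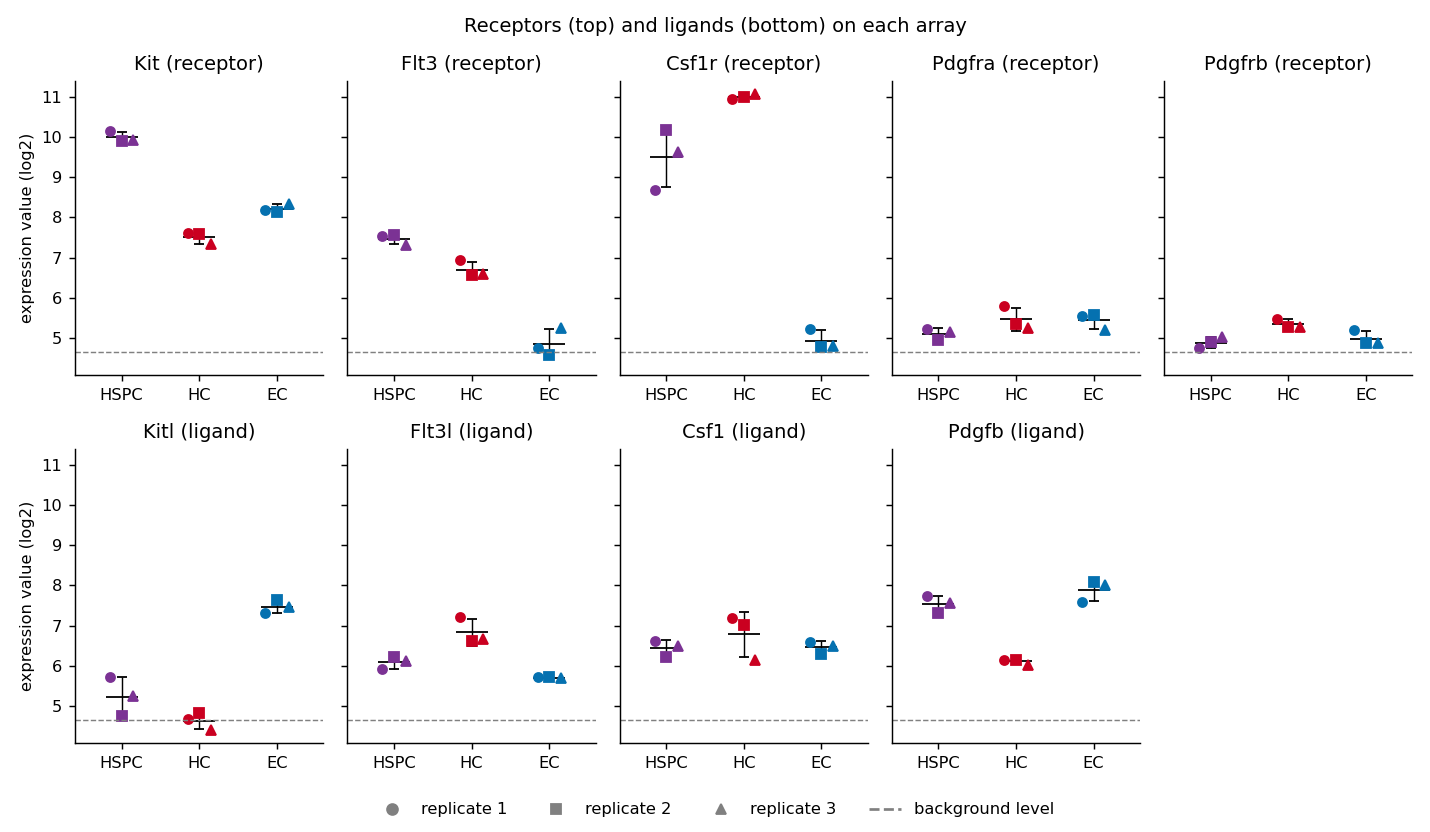
Expression value (log2) of the 5 receptors (top) and 4 ligands (bottom) on each array of HSPC, HC and EC, with the mean and SD of 3 arrays as black bars and the background level of 4.64 as a dashed line. Kit and Flt3 are highest in HSPC, Csf1r and Flt3l in HC, and Kitl in EC, while the HSPC arrays spread most for Csf1r.

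Kit was highest in HSPC, and its ligand Kitl was highest in EC. Kit stood at 10.16, 9.91 and 9.94 in HSPC, at 7.62, 7.58 and 7.33 in HC, and at 8.18, 8.14 and 8.34 in EC. The 3 groups did not overlap, and EC lay between the blood groups. Kit was 3.44-fold higher in HSPC than in EC (log2 difference 1.78 ± 0.11 SE, limma adjusted p = 1.33e-05) and 5.62-fold higher in HSPC than in HC (2.49 ± 0.11 SE, adjusted p = 5.74e-06). It was also lower in HC than in EC (-0.71 ± 0.11 SE, adjusted p = 0.000857). All HSPC arrays lay above all EC and HC arrays, so HSPC did not lie between the other populations for this gene. The level in HSPC stood 2.14 ± 0.09 SE above the midpoint of the EC and HC means (limma adjusted p = 7.28e-06). That contrast alone does not tell whether HSPC lies outside the range of EC and HC.

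Kitl showed a different order. It stood at 5.71, 4.73 and 5.24 in HSPC, at 4.68, 4.82 and 4.40 in HC, and at 7.31, 7.62 and 7.47 in EC. All EC arrays lay above all arrays of the other groups, and HSPC and HC overlapped. Kitl was 4.73-fold lower in HSPC than in EC (-2.24 ± 0.22 SE, adjusted p = 0.000225) and at least 6.74-fold lower in HC than in EC, where the HC mean was at background (adjusted p = 1.88e-05). Between HSPC and HC, again with HC at background, the difference has only a lower bound of 0.51 (adjusted p = 0.122), and it passed without HSPC replicate 2 (adjusted p = 0.0147). The HSPC mean of 5.23 was also near background, with 2.18% of the background genes at or above it. The fold against EC and the order of Kitl across the HSPC arrays are therefore not exact. Within HSPC, Kitl was highest in replicate 1 and lowest in replicate 2, the order of the endothelial markers. Their mean was 9.51, 8.11 and 8.88 in HSPC replicates 1, 2 and 3. Of the 2562 genes lower in HC than in EC, 49.3% had this order, against 15.2% of all genes. Kit, Pdgfb, Csf1 and Pdgfra had it as well. Kitl in HSPC was also lower than the midpoint of EC and HC, a fitted value that rests on the HC mean at background (-0.82, adjusted p = 0.0391), a call lost in 9 of 16 other settings, including each array left out in turn except HSPC replicate 1 (adjusted p 0.0545 to 0.117).

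The promoters of Kit and Flt3, the pair highest in HSPC, and of Kitl, highest in EC, are shown because the results turn on these 3 genes and the groups in which they peak. They run from 250 bases before to 50 after the start of transcription in RefSeq (GRCm38.p6) and are written 5′ to 3′ along the gene. Capitals mark matches on either strand to the letters GATA, to the Runx core TGTGGT and to the E-box CANNTG, of which no 2 overlap here. The Kit window is chr5:75574737-75575036 (plus strand), the Flt3 window chr5:147400440-147400739 (minus strand) and the Kitl window chr10:100015571-100015870 (plus strand).
Kit: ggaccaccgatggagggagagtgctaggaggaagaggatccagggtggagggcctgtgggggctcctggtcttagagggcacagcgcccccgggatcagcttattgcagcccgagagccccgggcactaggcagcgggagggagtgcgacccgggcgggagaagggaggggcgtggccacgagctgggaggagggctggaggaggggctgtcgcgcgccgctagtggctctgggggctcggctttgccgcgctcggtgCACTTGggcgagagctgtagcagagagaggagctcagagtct
Flt3: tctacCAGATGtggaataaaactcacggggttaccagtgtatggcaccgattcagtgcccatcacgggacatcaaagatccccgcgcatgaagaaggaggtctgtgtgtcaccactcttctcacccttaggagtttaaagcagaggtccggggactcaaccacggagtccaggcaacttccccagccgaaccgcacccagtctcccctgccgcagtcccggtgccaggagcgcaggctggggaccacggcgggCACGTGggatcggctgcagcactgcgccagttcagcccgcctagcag
Kitl: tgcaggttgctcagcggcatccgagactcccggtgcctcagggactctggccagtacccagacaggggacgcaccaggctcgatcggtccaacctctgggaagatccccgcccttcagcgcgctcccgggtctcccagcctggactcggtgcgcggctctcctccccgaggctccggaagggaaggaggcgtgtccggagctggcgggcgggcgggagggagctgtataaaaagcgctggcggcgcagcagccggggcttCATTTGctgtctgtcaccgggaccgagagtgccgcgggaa
E-box letters were the only matches marked, 1 in Kit, 2 in Flt3 and 1 in Kitl. Over 27025 promoters of this length 72.1% held CANNTG, 58.3% GATA and 16.9% TGTGGT. The Kit and Kitl windows had 69% and 68.7% G and C and the Flt3 window 61%, against a median of 52.7% over all promoters. A match is a description of letters, and letters missing from a window of this size say nothing about binding elsewhere. RefSeq windows were found for 6 of the 9 members, and not for Csf1r, Pdgfrb or Pdgfb. Kit had 2 entries, of which the first listed is shown. Among the windows not shown, that of Flt3l held 1 match to GATA.

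Kit also marks mast cells, germ cells and pigment cell precursors, whose markers are given beside it. Of 8 mast cell genes, 7 were at or under background in HSPC, and the list averaged 3.84 to 3.99 on the HSPC arrays, 4.69 to 4.82 on the HC arrays and 3.72 to 3.82 on the EC arrays. Hdc, the histamine-forming enzyme, and Cpa3, a granule protease, were lower in HSPC than in HC (-3.51 ± 0.15 SE and a bound of at least 1.82 lower, adjusted p = 5.51e-06 and 0.00059). Of 7 germ cell genes, 5 were at or under background in HSPC and in HC and 6 in EC, while Nanos3 lay above it in every group and Dppa3 in HSPC and HC. That list averaged 3.87 to 4.15 in HSPC, 4.02 to 4.08 in HC and 3.94 to 3.99 in EC. Of 5 neural crest and pigment genes, Dct and Tyr were under background in every group and Sox10, Foxd3 and Pmel above it. That list averaged 4.41 to 4.48 in HSPC, 4.53 to 4.56 in HC and 4.49 to 4.54 in EC. No gene of these 3 lists passed the threshold as higher in HSPC than in EC or HC.

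Flt3 was high in both blood groups and highest in HSPC. It stood at 7.53, 7.57 and 7.31 in HSPC, at 6.93, 6.57 and 6.58 in HC, and at 4.74, 4.56 and 5.25 in EC. No groups overlapped. Flt3 was 6.13-fold higher in HSPC than in EC (2.62 ± 0.18 SE, adjusted p = 2.74e-05) and 3.58-fold higher in HC than in EC (1.84 ± 0.18 SE, adjusted p = 6.13e-05). Both folds rest on an EC mean of 4.85 near background, with 3.19% of the background genes at or above it. The step from HC to HSPC was smaller, 1.71-fold (0.78 ± 0.18 SE, adjusted p = 0.0198). That call was lost without HSPC replicate 1 (adjusted p = 0.0627) or 2 (0.0526) and without HC replicate 2 (0.0709) or 3 (0.0730), while the difference stayed between 0.71 and 0.89 in all 17 other settings. Across the HSPC arrays Flt3 ran 2, 1, 3 from high to low, within 7.31 to 7.57. Csf1r and Flt3l ran 2, 3, 1, the order of the macrophage markers. The part of macrophages in the level of Flt3 was not tested. Flt3 and Kit were the 2 members that passed as higher in HSPC than in each other population, as 1.27% of all genes did.

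Flt3l, its ligand, was highest in HC. It stood at 5.91, 6.21 and 6.12 in HSPC, at 7.21, 6.61 and 6.66 in HC, and at 5.71, 5.71 and 5.69 in EC, with no overlap between groups. Flt3l was lower in HSPC than in HC (-0.75 ± 0.15 SE, adjusted p = 0.012) and 2.18-fold higher in HC than in EC (1.12 ± 0.15 SE, adjusted p = 0.000503). HSPC and EC differed by 0.38 (95% interval 0.03 to 0.73, adjusted p = 0.153), which passed without HC replicate 1 (adjusted p = 0.0216) and in a fit of HSPC and EC alone (0.0403). Receptor and ligand of this pair thus had different leading groups among the blood cells, Flt3 in HSPC and Flt3l in HC.

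Csf1r, the receptor on which macrophages depend, had the widest range of the members. It stood at 8.70, 10.19 and 9.62 in HSPC, at 10.94, 11.01 and 11.06 in HC, and at 5.23, 4.76 and 4.79 in EC. The HC arrays agreed closely, at 11.01 ± 0.06 (SD, n = 3), while the HSPC arrays spread more widely, at 9.50 ± 0.75. Csf1r was 23.8-fold higher in HSPC than in EC (4.58 ± 0.32 SE, adjusted p = 3.03e-05), 67.6-fold higher in HC than in EC (6.08 ± 0.32 SE, adjusted p = 2.88e-06), and 2.84-fold lower in HSPC than in HC (-1.50 ± 0.32 SE, adjusted p = 0.0134). The last call was lost without HC replicate 3 (adjusted p = 0.0514). On a scale from the EC mean to the HC mean, the HSPC arrays lay at 62.0%, 86.5% and 77.3%. The EC mean of 4.93 was near background, with 2.80% of the background genes at or above it. The folds against EC and the positions on this scale are therefore not exact.

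Macrophage markers moved with Csf1r. All 11 of 11 were higher in HSPC than in EC, and 9 were lower in HSPC than in HC. Their mean was 7.80, 9.40 and 8.65 in HSPC replicates 1, 2 and 3, 9.81 to 9.94 on the HC arrays and 5.03 to 5.38 on the EC arrays, and the median marker lay at 53.4%, 86.3% and 73.6% of the way from EC to HC. None was at or under background in HSPC. Timd4, a receptor of resident macrophages for dying cells, was the marker higher in HSPC than in HC. The part of macrophages within the HSPC gate in the level of Csf1r was not tested.

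**Figure D2:**
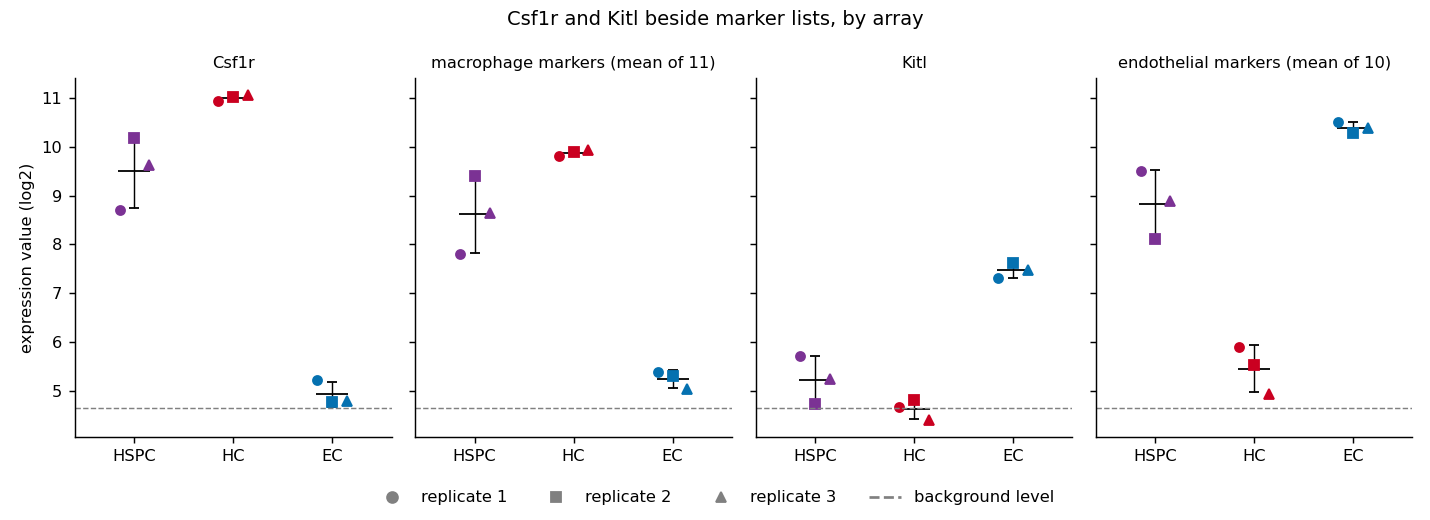
Expression value (log2) by array for Csf1r, the mean of 11 macrophage markers, Kitl and the mean of 10 endothelial markers in HSPC, HC and EC, with mean and SD as black bars and the background level dashed. The HSPC arrays run 2, 3, 1 from high to low for Csf1r and the macrophage markers and 1, 3, 2 for Kitl and the endothelial markers.

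Csf1, the ligand of Csf1r, did not pass the threshold in any comparison. It stood at 6.60, 6.22 and 6.50 in HSPC, at 7.18, 7.01 and 6.14 in HC, and at 6.59, 6.29 and 6.49 in EC. HC replicate 3 lay below every array of the other groups while HC replicates 1 and 2 lay above them, so all groups overlapped. The difference between HSPC and EC was -0.02 (95% interval -0.57 to 0.54, adjusted p = 0.986), between HSPC and HC -0.34 (-0.89 to 0.22, adjusted p = 0.444) and between HC and EC 0.32 (-0.24 to 0.88, adjusted p = 0.409). Without HC replicate 3, Csf1 was lower in HSPC than in HC (-0.66, adjusted p = 0.0258) and higher in HC than in EC (0.64, adjusted p = 0.012).

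The PDGF receptors were low in every group. Pdgfra, which marks mesenchyme, stood at 5.22, 4.95 and 5.15 in HSPC, at 5.79, 5.35 and 5.25 in HC, and at 5.55, 5.57 and 5.20 in EC. Its means exceeded those of all but 1.56% to 2.49% of the background genes, so a level near background cannot be set apart from a true low level here. Its differences were -0.33 between HSPC and EC (95% interval -0.70 to 0.03, adjusted p = 0.229), -0.36 between HSPC and HC (-0.72 to 0.002, adjusted p = 0.189) and 0.02 between HC and EC (-0.34 to 0.39, adjusted p = 0.937).

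Pdgfrb, the receptor of pericytes and smooth muscle, stood at 4.74, 4.89 and 5.02 in HSPC, at 5.48, 5.27 and 5.26 in HC, and at 5.21, 4.86 and 4.87 in EC. HSPC overlapped with EC and lay below HC. Pdgfrb was 1.37-fold lower in HSPC than in HC (-0.45 ± 0.12 SE, adjusted p = 0.0336), a call lost without HSPC replicate 1 (adjusted p = 0.111) or 2 (0.0682), without HC replicate 1 (0.111), 2 (0.067) or 3 (0.0635). HC and EC differed by 0.36 (0.09 to 0.62, adjusted p = 0.0543), past the threshold without EC replicate 1 (0.0149), and HSPC and EC by -0.10 (-0.37 to 0.17, adjusted p = 0.713). Of 15 mural and mesenchymal markers, 4 were at or under background in HSPC and 2 each in HC and EC, Lum and Des among them in every group. The list averaged 5.33 to 5.46 in HSPC, 5.44 to 5.80 in HC and 5.45 to 5.78 in EC. In HSPC against EC 3 of its genes passed, Prrx1, Rgs5 and Col3a1, all lower in HSPC. In HSPC against HC 1 passed, Prrx1, lower in HSPC, and in HC against EC 1, Notch3, lower in HC. Of all genes 16.5%, 14.6% and 27.4% passed in these comparisons. The part of mural and mesenchymal cells in the PDGF receptor values was not tested.

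Pdgfb, in contrast, was clearly measured and highest in the CD144+ groups. It stood at 7.73, 7.32 and 7.55 in HSPC, at 6.15, 6.15 and 6.03 in HC, and at 7.58, 8.09 and 8.003 in EC. HSPC and EC overlapped, and both lay above HC. Pdgfb was 2.68-fold higher in HSPC than in HC (1.42 ± 0.15 SE, adjusted p = 0.000492) and 3.44-fold lower in HC than in EC (-1.78 ± 0.15 SE, adjusted p = 2.43e-05). Between HSPC and EC it differed by -0.36 (95% interval -0.69 to -0.02, adjusted p = 0.157), and this passed without EC replicate 1 (-0.52, adjusted p = 0.0295). On the scale from EC to HC the HSPC arrays lay at 9.07%, 32.1% and 19.2% for Pdgfb, beside 17.5%, 46.2% and 29.0% for the median of the 10 endothelial markers. Kitl, also highest in EC, lay much nearer to HC on this scale, at 62.1%, 96.4% and 78.6%. For Kitl the HC end of the scale is a mean at background, so its positions are not exact. Platelets also carry Pdgfb, and 6 megakaryocyte markers averaged 6.57 to 7.43 in HSPC, 6.91 to 6.96 in HC and 5.67 to 6.87 in EC. In HSPC against EC 2 of them passed, Gp9 and Itga2b, both higher in HSPC. In HSPC against HC 1 passed, Gp9, higher in HSPC, and in HC against EC 1, Pf4, higher in HC. Of all genes 16.5%, 14.6% and 27.4% passed in these comparisons. The part of the megakaryocyte lineage in the Pdgfb values was not tested.

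**Figure D3:**
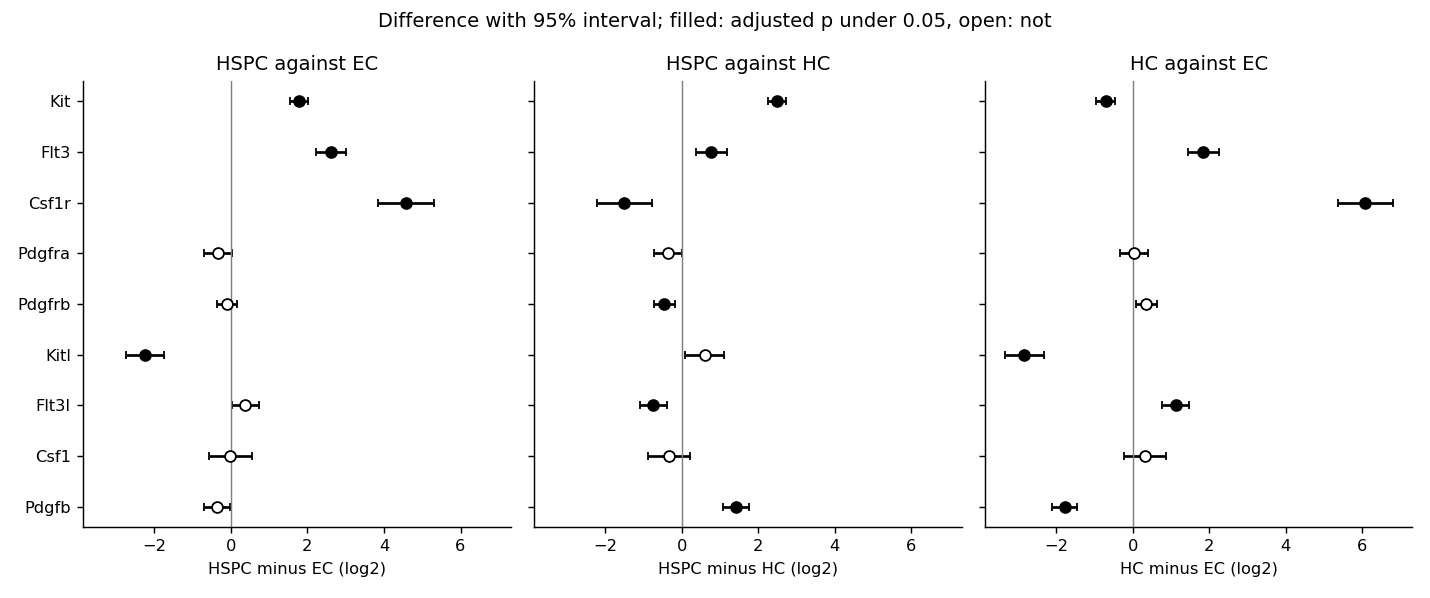
Log2 differences of the 9 members, receptors above ligands, for HSPC over EC, for HSPC over HC and for HC over EC, with 95% intervals from limma. Filled points had an adjusted p under 0.05. Kit lies right of 0 in both HSPC panels and left of 0 in HC against EC.

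The 3 arrays of each group did not overlap for 5 members in HSPC against EC, 7 in HSPC against HC and 7 in HC against EC, where 28.2%, 29.6% and 39.2% of all genes did not. In HSPC against EC, 4 of the 9 members passed the threshold, against 16.5% of all genes, with Kit, Flt3 and Csf1r higher and Kitl lower. In HSPC against HC 6 passed, against 14.6% of all genes, with Kit, Flt3 and Pdgfb higher and Csf1r, Pdgfrb and Flt3l lower. In HC against EC 6 passed, against 27.4% of all genes, with Flt3, Csf1r and Flt3l higher and Kit, Kitl and Pdgfb lower. The median difference of the members was -0.02, -0.34 and 0.32 in these comparisons, and that of all genes 0.01, -0.03 and 0.05. The comparisons share arrays and are not independent. The members were chosen with earlier results of these data known, so these counts beside the shares are a description and not a test. Away from the midpoint of EC and HC, 5 members passed in HSPC, against 6.56% of all genes, namely Kit, Flt3, Csf1r, Kitl and Pdgfb. The count was 2 without HSPC replicate 3 and 3 without EC replicate 3 or any 1 of the HC replicates, and 3 with the replicate block. Kitl is described above. Kit and Flt3 (1.70 ± 0.15 SE above the midpoint, adjusted p = 0.000412) held in all 16 other settings. Csf1r (1.54 ± 0.27 SE, adjusted p = 0.0129) lost its call without HSPC replicate 3 (0.0603). Pdgfb (0.53 ± 0.13 SE, adjusted p = 0.0425) lost its call in 8 of 16 settings, among them the arrays left out in turn except HSPC replicate 2 and EC replicates 1 and 2 (adjusted p 0.0644 to 0.134).

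The genes with profiles most like each member were found by the root mean square difference (RMS) over the 9 arrays, after each gene was centred on its own mean. For Kit they were Setbp1 (RMS 0.29, r = 0.96), the matrix protein gene Chad (0.30, r = 0.96) and the proto-oncogene Mycn (0.31, r = 0.96). For Flt3 they were Irak3, an inhibitor of Toll-like receptor signals (0.25, r = 0.98), Def6 (0.26, r = 0.98) and the kinase gene Stk26 (0.30, r = 0.97). Csf1r was followed closely by the complement gene C1qb (0.12, r = 0.999), the leukocyte actin regulator Nckap1l (0.21, r = 0.997) and the macrophage protease Ctss (0.21, r = 0.997), while the RMS of Csf1r about its own mean was 2.61. C1qb is also one of the macrophage markers above.

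For Kitl the nearest were the collagen-binding integrin chain Itga1 (0.10, r = 0.998), Tgfb1i1 (0.17, r = 0.995) and Crmp1 (0.18, r = 0.993). Pdgfb lay nearest to Rbpms (0.12, r = 0.989), the surface sialomucin of endothelium and progenitors Cd34 (0.17 with r = 0.975) and the transcription factor gene Sox4 (0.18, r = 0.973). Flt3l lay nearest to Gnat3 (0.12, r = 0.989), Spns3 (0.13, r = 0.969) and Nuak2 (0.14, r = 0.975), of which Gnat3 averaged under background in every group. Nuak2 was under background in HSPC (4.52) and EC (4.26), and Itga1 in HSPC (4.32) and HC (3.79). Nckap1l (4.62) and Ctss (4.34) were under it in EC. Pdgfrb varied little about its mean (RMS 0.23), so that its nearest genes Ebpl, Commd10 and Lsamp (0.07 to 0.09) are nearest to an almost flat profile. These correlations describe 9 arrays that fall into 3 groups, and genes that differ between the groups also correlate with each other.

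In the gene order of the RefSeq table of GRCm38.p6, 4 of the 5 receptor genes lie beside another receptor gene, and Flt3 lies between Urad and Pan3. On chromosome 5 Pdgfra, Kit and Kdr, the main receptor for vascular endothelial growth factor, follow each other among the measured coding genes, and on chromosome 18 Pdgfrb is followed by Csf1r. The groups fell in different orders for neighbouring genes. Kdr stood at 7.88 ± 0.91 in HSPC, 4.82 ± 0.42 in HC and 10.18 ± 0.07 in EC, so that in HSPC against EC it was lower (-2.30 ± 0.40 SE, adjusted p = 0.00393) while Kit was higher. In HC against EC both were lower, Kdr by -5.36 and Kit by -0.71. In HSPC against HC both were higher, Kdr by 3.06 ± 0.40 SE and Kit by 2.49 ± 0.11 SE (limma adjusted p = 0.00137 and 5.74e-06). On chromosome 18, Csf1r was 6.08 higher in HC than in EC, while the difference of Pdgfrb was 0.36 and did not pass (adjusted p = 0.0543). In HSPC against HC both were lower, Csf1r by -1.50 and Pdgfrb by -0.45 (limma adjusted p = 0.0134 and 0.0336). The Pdgfrb call was lost in 6 of 17 other settings and the Csf1r call in 1. Hmgxb3, on the other side of Csf1r, passed in none of the comparisons (adjusted p 0.378 to 0.905).

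**Figure D4:**
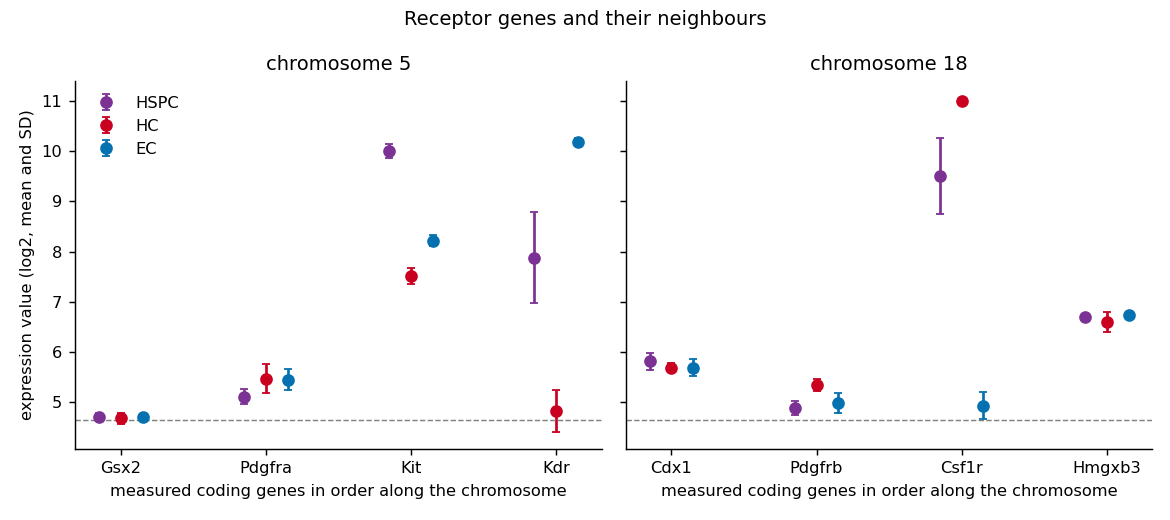
Mean and SD (log2, 3 arrays) of measured coding genes in chromosome order around Kit (left) and Csf1r (right), with HSPC, HC and EC side by side and the background level dashed; heights of different genes are not comparable. Kit has its highest level in HSPC and Kdr in EC, and Csf1r varies far more than its neighbours Pdgfrb and Hmgxb3.

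Other ligands of these receptors were mostly low or even. Of 4 genes, 1 passed in HSPC against EC, none in HSPC against HC by limma (2 at an unadjusted p under 0.05, Pdgfd and Il34) and 1 in HC against EC, where 16.5%, 14.6% and 27.4% of all genes passed. The gene was Pdgfd, a ligand of Pdgfrb, which averaged 5.03 in HSPC, 4.29 in HC and 5.96 in EC. Its difference was -0.93 ± 0.21 SE between HSPC and EC (adjusted p = 0.0173), lost without EC replicate 1 (0.0676) or 2 (0.0639) or HSPC replicate 2 (0.0598). Pdgfd was at least 2.46-fold lower in HC than in EC (adjusted p = 0.000347), and between HSPC and HC, where HC was under background, the difference has only a lower bound of 0.37 (adjusted p = 0.0506), with a p under the threshold in 8 of 17 other settings. Il34, the second ligand of Csf1r, was under background in all groups, at 4.31 in HSPC, 4.47 in HC and 4.29 in EC. Pdgfa averaged 6.27 in HSPC, 6.21 in HC and 6.55 in EC, and Pdgfc 4.86 in HSPC, 5.04 in HC and 5.26 in EC, with no difference past the threshold.

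Proteases that release or activate the ligands and receptors were lower in HSPC where they differed. Of 6 such genes, 2 passed in HSPC against EC, 2 in HSPC against HC and 4 in HC against EC, where 16.5%, 14.6% and 27.4% of all genes passed. In HSPC against EC those that fell were Plau (urokinase, an activator of Pdgfd; -1.22 ± 0.18 SE, adjusted p = 0.00158) and Plat (tissue plasminogen activator, which activates Pdgfc; -1.09 ± 0.22 SE, adjusted p = 0.00848). In HSPC against HC they were Plau (-0.99 ± 0.18 SE, adjusted p = 0.00648) and Adam17 (-0.57 ± 0.10 SE, adjusted p = 0.00624), a sheddase of Csf1r and Kit. In HC against EC, Mmp9, a protease that frees soluble Kitl, rose at least 1.94-fold (adjusted p = 0.0126) and Adam17 rose by 0.54 ± 0.10 SE (adjusted p = 0.00335), while Plat fell (-1.13 ± 0.22 SE, adjusted p = 0.00385). Adam10 was also lower in HC (-0.39 ± 0.12 SE, adjusted p = 0.0341), but not without any 1 of EC replicates 1 to 3 (0.0535 to 0.115) or HC replicates 1 and 2 (0.11 and 0.0902).

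Adaptors and relay enzymes went both ways. Of 22 measured, 8 rose and 5 fell in HSPC against EC, 3 rose and 4 fell in HSPC against HC, and 7 rose and 9 fell in HC against EC, where 16.5%, 14.6% and 27.4% of all genes passed in either direction. Their median difference was -0.05, 0.14 and -0.05 in these comparisons, beside 0.01, -0.03 and 0.05 for all genes. The count of 13 in HSPC against EC was not firm, at 8 without EC replicate 2, 8 without HC replicate 2, 6 without HSPC replicate 2, 7 without HSPC replicate 3, 5 without EC replicate 3 and 7 in a fit of both groups alone. Vav1, an exchange factor of blood cells, was at least 7.67-fold higher in HSPC than in EC (adjusted p = 4.38e-06) and at least 13.9-fold higher in HC than in EC (adjusted p = 6.52e-07).

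Both phospholipase genes of the list passed against EC, with opposite signs. The phospholipase C gene Plcg2 rose in HSPC (2.47 ± 0.16 SE, adjusted p = 2.43e-05) and in HC (2.01 ± 0.16 SE, adjusted p = 2.18e-05) against EC. Plcg1 fell in HSPC (-0.94 ± 0.15 SE, adjusted p = 0.00227) and in HC (-2.49 ± 0.15 SE, adjusted p = 4.27e-06) against EC, and was higher in HSPC than in HC (1.55 ± 0.15 SE, adjusted p = 0.000324). Among the docking proteins, Gab1 fell against EC in HSPC (-1.10 ± 0.16 SE, adjusted p = 0.00158) and HC (-1.38 ± 0.16 SE, adjusted p = 0.000183). Gab3 was lower in HSPC than in HC (-1.10 ± 0.09 SE, adjusted p = 0.000126) and at least 2.54-fold higher in HC than in EC, where it was under background (adjusted p = 5.15e-06). The phosphoinositide kinase gene Pik3cd, typical of white blood cells, averaged 7.21 in HSPC, 8.61 in HC and 5.02 in EC, and all 3 differences passed (adjusted p 1.14e-05 to 0.00719).

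The adaptor gene Grb10 averaged 9.07 in HSPC, 7.49 in HC and 10.36 in EC. It was lower in HSPC than in EC (-1.29 ± 0.28 SE, adjusted p = 0.0133, and 0.0503 without EC replicate 3), higher in HSPC than in HC (1.58 ± 0.28 SE, adjusted p = 0.00656) and lower in HC than in EC (-2.87 ± 0.28 SE, adjusted p = 6.96e-05). The kinase gene Fes was lower in HSPC than in HC (-0.86 ± 0.12 SE, adjusted p = 0.0024). Src was higher in HSPC than in HC by 0.33 ± 0.09 SE (adjusted p = 0.0469), a call lost in 13 of 17 other settings, including each array left out except HSPC replicate 2 (adjusted p 0.0691 to 0.139).

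Inhibitors of receptor signalling also moved in both directions. Of 18, 6 rose and 5 fell in HSPC against EC, 2 rose and 4 fell in HSPC against HC, and 8 rose and 7 fell in HC against EC, beside the same 16.5%, 14.6% and 27.4% of all genes. The median difference was 0.16, -0.08 and 0.21 in these comparisons, beside 0.01, -0.03 and 0.05 for all genes. Sla, an adaptor that lowers receptor levels, was 4.12 ± 0.16 SE higher in HSPC and 4.80 ± 0.16 SE higher in HC than in EC (adjusted p = 1.21e-06 and 3.25e-07). The phosphatase gene Ptpn6, which dampens Kit signals, was 3.22 ± 0.10 SE higher in HSPC and 3.54 ± 0.10 SE higher in HC than in EC (adjusted p = 5.51e-07 and 2.25e-07). Dok2 rose likewise, by 2.10 ± 0.12 SE in HSPC and 2.19 ± 0.12 SE in HC (adjusted p = 8.98e-06 and 2.98e-06).

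The Sprouty genes, inhibitors of the Ras pathway, were lower than in EC where they passed. Spry4 was lower than in EC by -1.71 ± 0.26 SE in HSPC and by -2.09 ± 0.26 SE in HC (adjusted p = 0.00212 and 0.000292), and Spry1 by -0.93 ± 0.17 SE and -1.18 ± 0.17 SE (adjusted p = 0.00545 and 0.00071). Spry2 was lower in HC than in EC (-1.08 ± 0.31 SE, adjusted p = 0.0313), but not without EC replicate 1 (0.0944) or 2 (0.109) or HC replicate 1 (0.0892) or 3 (0.113). Dusp6, a phosphatase of ERK kinases, was lower in HSPC than in EC (-0.78 ± 0.14 SE, adjusted p = 0.00527). In HSPC against HC, Sla2 (1.04 ± 0.16 SE, adjusted p = 0.00331) and the ubiquitin ligase gene Cblb (0.39 ± 0.08 SE, adjusted p = 0.0131) rose. Dok3 (-1.20 ± 0.18 SE, adjusted p = 0.00318) and Spred1 (-0.61 ± 0.09 SE, adjusted p = 0.00285) fell. Sla fell as well (-0.68 ± 0.16 SE, adjusted p = 0.0217), but not without HSPC replicate 1 (0.0712) or 3 (0.0727) or HC replicate 1 (0.0578), 2 (0.054) or 3 (0.0773).

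**Figure D5:**
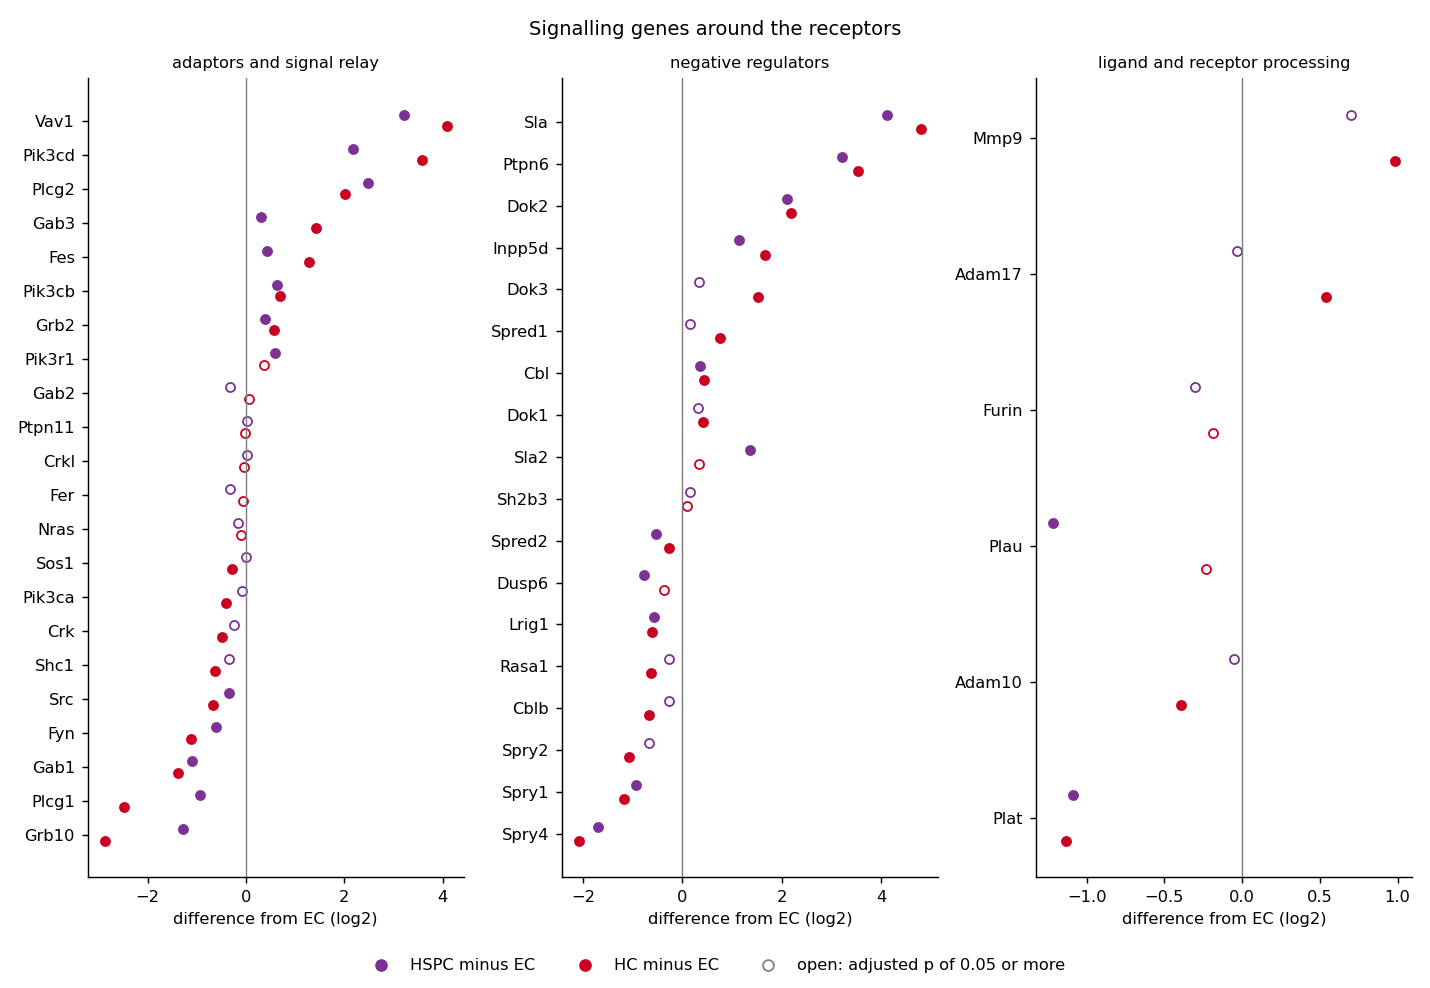
Log2 difference from EC of adaptors and relay enzymes, negative regulators and processing proteases in HSPC (purple) and HC (red), ordered by the HC value; filled points had an adjusted p under 0.05. Both populations share EC arrays, and Vav1, Sla and Ptpn6 lie far to the right in both, Grb10 and Spry4 to the left.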

How the data were processed

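RNA of 9 sorted samples was hybridised to Affymetrix mouse gene arrays after amplification of about 5 ng with the Ovation Pico V2 kit, per the labels' protocols, which name the 1.0 ST and 2.0 ST arrays. The authors deposited a log2 value for each probe set on each array, made with RMA and Partek per the submitters' processing notes, whose versions and build are not given in the sources used. On 46.6% of probe sets 2 or more arrays carried an identical value. Differences of dim genes can be compressed in such data, and amplification and RMA's quantile step can hide changes in total RNA per cell. Neither was tested here. Array medians lay between 5.41 and 5.51, and arrays of a group correlated at 0.985 to 0.994. Precision is limited by the number of arrays.

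Of 21115 probe sets, named by Entrez number, 20405 had 1 symbol in the platform annotation, none had several, and 710 had none and were left out. Differences were tested two-sided by lmFit and eBayes of limma 3.58.1 (R 4.3.3) in a joint model of 9 arrays with group means (6 residual and 2.75 prior degrees of freedom), with Benjamini-Hochberg adjustment over 20405 genes and a threshold of 0.05. With 3 arrays a side, exact permutation p-values are 0.1 or more (two-sided). A difference whose lower group mean is at or under the background level is given as a bound, from the higher mean and, per array, the higher of that level and the own value. The script was tested on simulated data. The members, lists and markers were chosen with earlier results of these data known. Some genes of the lists were not analysed here. Named list genes are the 3 largest changes past the threshold in each direction per list and comparison, all other ligands, the 3 nearest profiles per member and chromosome neighbours. Marker lists are means of log2 values; the leukocyte, granulocyte, erythroid, lymphoid and epithelial lists averaged 9.44 to 10.4, 6.05 to 6.27, 6.52 to 6.91, 4.26 to 4.38 and 5.51 to 5.54 on the HSPC arrays, 11.1 to 11.2, 8.76 to 9.19, 6.52 to 7.04, 4.33 to 4.46 and 5.16 to 5.36 on the HC arrays, and 6.02 to 6.23, 4.50 to 5.28, 6.17 to 7.28, 4.16 to 4.27 and 5.25 to 5.37 on the EC arrays. Alternatives were a replicate block, each array left out, dropping dim probe sets, quantile normalization repeated, median centring, trend with robust options, fits of 2 groups, array weights, unnamed probe sets included and other background percentiles.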

Additional observations from a re-analysis of the deposited data

How the results depend on the processing

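Of 36 member differences, 21 kept their direction and their side of the threshold in all alternatives run. Reversals concerned differences that did not pass: Csf1 in HSPC against EC without EC replicate 1 (0.050), HSPC replicate 2 (0.096) or EC replicate 3 (0.0018), Pdgfrb there without EC replicate 1 (0.014), and Pdgfra in HC against EC without HC replicate 1 (-0.14) or EC replicate 3 (-0.096), with repeated quantile normalization (-0.022) and with median centring (-0.020). With single arrays left out these ran from -0.098 to 0.096, from -0.17 to 0.014 and from -0.14 to 0.13. With arrays left out, members past the threshold were 4 to 5 in HSPC against EC, 4 to 6 in HSPC against HC and 6 to 7 in HC against EC, and 2 to 4 from the midpoint; adaptors in HSPC against EC were 5 to 10, and other ligands 0 to 1, 0 to 1 and 1 to 2. Deviations of same-numbered arrays correlated at -0.04 to 0.15, and those of differently numbered arrays of different groups at -0.14 to 0.15. These correlations over all genes cannot tell whether arrays of the same number were paired. The replicate block gave 3 members from the midpoint and took Pdgfrb in HSPC against HC over the threshold (adjusted p = 0.0556). Under it 1 of the other ligands was called in HSPC against HC, as after dropping dim probe sets, on repeating quantile normalization, with trend and robust options or with array weights (1 each), against 0 otherwise. A fit of 2 groups alone called 7 adaptors in HSPC against EC and 2 other ligands in HC against EC. With the 99th percentile of background genes (5.70), 3 members in HSPC, 3 in HC and 5 in EC were at or under the level, and with the 90th (4.31) 0 in HC. The causes of these changes were not tested. Signal near background limits Kitl in HSPC and HC, Flt3, Csf1r and Flt3l in EC and both PDGF receptors in all groups.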
